A study of Homo sapiens with 9 samples.

Results

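Mitochondria receive nearly all of their proteins from the cytosol, and the genes described here encode the machinery that brings those proteins in, trims them and removes the damaged ones. The group holds the protein-coding genes whose symbols begin with TIMM or TOMM and a number, without readthrough genes, together with the proteases and processing peptidases LONP1, CLPP, CLPX, YME1L1, AFG3L2, SPG7, PMPCA, PMPCB, HTRA2 and PITRM1. It comes to 35 of the 37118 genes in the table. Of these 35, 34 had a mean of at least 1 FPKM (a level normalised for transcript length and library depth) over all libraries and were tested among 12394 genes. The remaining gene, TOMM20L, a paralog of the receptor TOMM20, was not tested, with 12, 0 and 6 counts at 0 mM metformin, 6, 0 and 3 at 20 mM and 0 in each library at 40 mM.

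The libraries were made from polyadenylated RNA of A375, an established human melanoma cell line with an activating BRAF mutation, labelled wild type in all groups. Cells received metformin, a biguanide diabetes drug known to act on complex I of the respiratory chain, at 0, 20 or 40 mM, with 3 libraries per dose and 9 in all. The sources used here do not state the length of exposure or the vehicle. Since separate cultures are not named for the libraries of a dose, the p-values take in the spread among these libraries alone, and it may be technical.

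A precursor protein first meets the TOM complex of the outer membrane, in which receptors pass it to the channel TOMM40. Proteins with a cleavable presequence continue through the TIM23 complex of the inner membrane, pulled in by a motor built on mitochondrial HSP70, whereas carrier proteins are handed by small TIM chaperones to the TIM22 complex. In the matrix the processing peptidase cuts off the presequence, and ATP-dependent proteases such as LON and ClpXP remove misfolded or surplus proteins. Protein load and import defects are known to engage stress responses that run through ATF4, CHOP and ATF5.

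Promoter sequence is shown first, because members of this machinery moved in opposite directions and their start regions can be read side by side. RefSeq (GRCh38.p14) start windows, 250 bases before and 50 after a start, were found for 31 of the 35 members in 36 windows, since 4 genes have several starts. The stretches printed here are the longest part of the 250 bases that no GENCODE 29 exon covers, 5′ to 3′ on the strand of the gene, with matches to the searched motifs in capitals. LONP1 was higher with metformin, TOMM40 and CLPX were lower, and TIMM22 did not pass the test at either dose. They lie at chr19:5720573-5720676 (minus strand), chr19:44891004-44891219 (plus strand), chr15:65185343-65185592 (minus strand) and chr17:996879-997116 (plus strand). The TOMM40 stretch precedes the RefSeq start used here but lies within the deposited span of the gene, which begins at 44890569.
LONP1: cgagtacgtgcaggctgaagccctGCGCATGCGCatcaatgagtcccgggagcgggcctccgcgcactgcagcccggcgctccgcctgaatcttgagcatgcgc
TOMM40: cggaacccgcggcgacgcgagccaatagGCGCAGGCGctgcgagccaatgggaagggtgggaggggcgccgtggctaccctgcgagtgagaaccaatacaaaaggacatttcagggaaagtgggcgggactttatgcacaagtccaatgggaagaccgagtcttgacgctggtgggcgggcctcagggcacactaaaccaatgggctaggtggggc
CLPX: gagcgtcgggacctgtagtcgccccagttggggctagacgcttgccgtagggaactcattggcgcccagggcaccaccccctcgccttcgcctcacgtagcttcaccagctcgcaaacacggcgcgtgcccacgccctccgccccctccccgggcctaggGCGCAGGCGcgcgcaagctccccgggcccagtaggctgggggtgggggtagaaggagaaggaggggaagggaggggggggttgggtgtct
TIMM22: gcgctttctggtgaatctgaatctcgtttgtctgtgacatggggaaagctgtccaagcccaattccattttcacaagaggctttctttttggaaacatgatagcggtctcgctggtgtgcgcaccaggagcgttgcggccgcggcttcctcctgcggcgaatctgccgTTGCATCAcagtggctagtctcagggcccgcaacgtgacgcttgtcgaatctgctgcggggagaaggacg

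The letters GCGCANGCG, a form of the NRF1 motif searched on both strands, stood 200 to 192 bases before the upstream start of LONP1 (and on the opposite strand 1 base on, from 199 to 191), 222 to 214 bases before the start of TOMM40 and 90 to 82 bases before that of CLPX, so this match was present in genes that rose and in genes that fell. It occurred in 30.6% of member windows, in 13.5% of the windows of tested genes and in 7.52% of all windows of that length. The 11 member windows with it belong to 10 genes, because 2 overlapping windows of SPG7 hold the same matches. The windows of SPG7 begin at 89508138 and 89508153, within the deposited span of the gene, which begins at 89490719. The letters CCGGAAG, the core read by ETS factors such as GABPA, occurred in 38.9% of member windows against 18.4% of the windows of tested genes and 10.3% of all windows. The letters TGATGNAA, the composite element read by ATF4 with a C/EBP partner, occurred in 2 member windows (5.56%), those of TIMM22 (capitals above, on the opposite strand) and PMPCB, against 1.94% of the windows of tested genes and 3.62% of all windows. The windows of LONP1 and TIMM44, the members that rose most, held no match to TGATGNAA. Sequence outside the windows and other forms of the element were not searched, and a link to the changes was not tested. The YY1 letters AANATGGCG occurred after the start in PMPCA, TIMM44 and TIMM50 and before it in TOMM40L (11.1% of member windows, 6.64% of those of tested genes, 3.19% of all). Matches of different motifs overlapped in 0 cases in the member windows. The shares were set side by side with no test, and a match is a string of letters rather than a shown binding site.

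The libraries held 65738242 to 75629413 counts, and the members' FPKM summed to 974 to 1020 at 0 mM, 987 to 1006 at 20 mM and 898 to 991 at 40 mM. Replicate 3 of 40 mM differed from its group. It lay at -22.6 on the second principal component against 17.7 and 15.2 for the other 40 mM libraries, and the share of counts in genes of the mitochondrial genome was 4.36%, where the others had 3.01% and 3.27%. Of 10 melanocyte lineage markers, 5 had a mean of at least 1 FPKM, with SOX10 at 95.8 FPKM and MITF at 2.95, while the pigment cell genes TYR (0.0019), PMEL (0.15) and MLANA (0.22) were near 0. The summed level of the 10 was 115 to 141 FPKM at 0 mM, 116 to 126 at 20 mM and 90.3 to 130 at 40 mM. Of the markers of leukocytes, keratinocytes, endothelium and fibroblasts, only LYZ, KRT14 and LUM reached a mean of 1 FPKM, and the leukocyte marker PTPRC was at 0.00046. Fibroblast markers summed to 3.35 to 4.08 FPKM at 0 mM and 6.10 to 7.12 at 40 mM, endothelial markers to 0.222 to 0.293 and 0.628 to 0.810, leukocyte markers to 3.29 to 4.08 and 4.14 to 5.10, and keratinocyte markers to 6.95 to 7.77 and 8.38 to 9.09. LUM made up most of the fibroblast sum (mean 3.24 at 0 mM and 6.14 at 40 mM), while DCN of the same list stood at 0.109 and 0.0913. The part of these markers in the results was not tested.

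The comparison of 20 with 0 mM asks how the machinery stood at the lower dose. LONP1, TIMM44, TIMM9, TOMM34 and YME1L1 rose, and TOMM40, TOMM6, CLPX, PITRM1 and PMPCA fell (edgeR quasi-likelihood test, adjusted p under 0.05 over all tested genes). That is 5 members higher, where 16.3% of all tested genes were called higher, and 5 lower, where 15.2% were, or 14.7% of the 34 members each way. The 10 called in all stand beside 31.6% of all tested genes called in either direction. The median log2 fold change of the 34 members was -0.03 and that of all tested genes 0.00, and the median absolute changes were 0.14 and 0.15. The share of members called was thus near the background in both directions. By FPKM, all 20 mM libraries lay above all 0 mM libraries for 8 members, where 25.6% of all tested genes did so, and below them for 10, where 24.9% did. Without replicate 3 of 40 mM, which is not among the libraries compared but shares the estimate of the spread, 16 members were called in place of 10, with TIMM13, TIMM17A, TOMM20, TOMM5 and TIMM23 added as lower and TOMM7 as higher; without replicate 1 or 2 of 0 mM, or without any one library of 20 mM, 2 or 3 were called lower.

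At 40 against 0 mM, LONP1, TIMM44, HTRA2, TOMM34, TIMM9 and YME1L1 were higher, and TOMM20, TIMM13, TOMM40, CLPX, TOMM6, PMPCA, TIMM17A, TIMM8A, TOMM5, PITRM1 and PMPCB were lower. That is 6 members higher (17.6%, where 28.8% of all tested genes were called higher) and 11 lower (32.4%, where 27.4% were), 17 members in all, where 56.2% of all tested genes were called. The comparisons with 0 mM share their control libraries, so a gene called in both is not called on independent evidence. By FPKM, the groups did not overlap for 6 members that were higher (34.4% of all tested genes) and 10 that were lower (26.8%). These overlaps use FPKM as deposited, without the library scaling of the test. The median log2 fold change was -0.07 against 0.00 for all tested genes, and the median absolute change was 0.17 against 0.24. Only LONP1 and TIMM44 changed by 0.5 or more at either dose, and no member fell by that much. Scaling to the FPKM sum of each library moved the split of all calls from 3571 higher and 3391 lower (51.3% higher) to 4238 and 2655 (61.5% higher), and the members' split from 6 and 11 to 7 and 8; without replicate 1 of 0 mM or replicate 2 of 40 mM, 3 members were called higher.

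Between the doses, no member was higher at 40 than at 20 mM and 6 were lower, namely TOMM20, LONP1, TIMM8A, CLPX, PMPCA and PMPCB. In all tested genes 14.3% were called higher and 15.1% lower in this comparison, and the members called lower came to 17.6%. In either direction together, 29.3% of all tested genes were called. By FPKM, 2 members lay higher at 40 than at 20 mM without overlap, where 25.9% of all tested genes did, and 7 lay lower, where 18% did. At an unadjusted p under 0.05 the count of members higher at 40 mM was also 0, and DESeq2 and limma called 0 higher. DESeq2 called 8 lower in place of 6, adding TIMM9 (-0.18, adjusted p = 0.040) and TOMM40 (-0.11, adjusted p = 0.037). TIMM9 was also called lower without replicate 2 of 40 mM, and TOMM6 without replicate 3 of 40 mM. AFG3L2 was called higher (0.12, adjusted p = 0.040) without replicate 3 of 40 mM. With FPKM-sum scaling the split of all calls went from 1770 higher and 1867 lower (48.7% higher) to 2784 and 1179 (70.2% higher), with limma it was 59.9%, and 2 members (FPKM-sum scaling) or 3 (limma) were then lower; without replicate 2 of 20 mM 2 were lower, and without replicate 3 of 20 mM or replicate 1 of 40 mM 3 were.

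**Figure D1:**
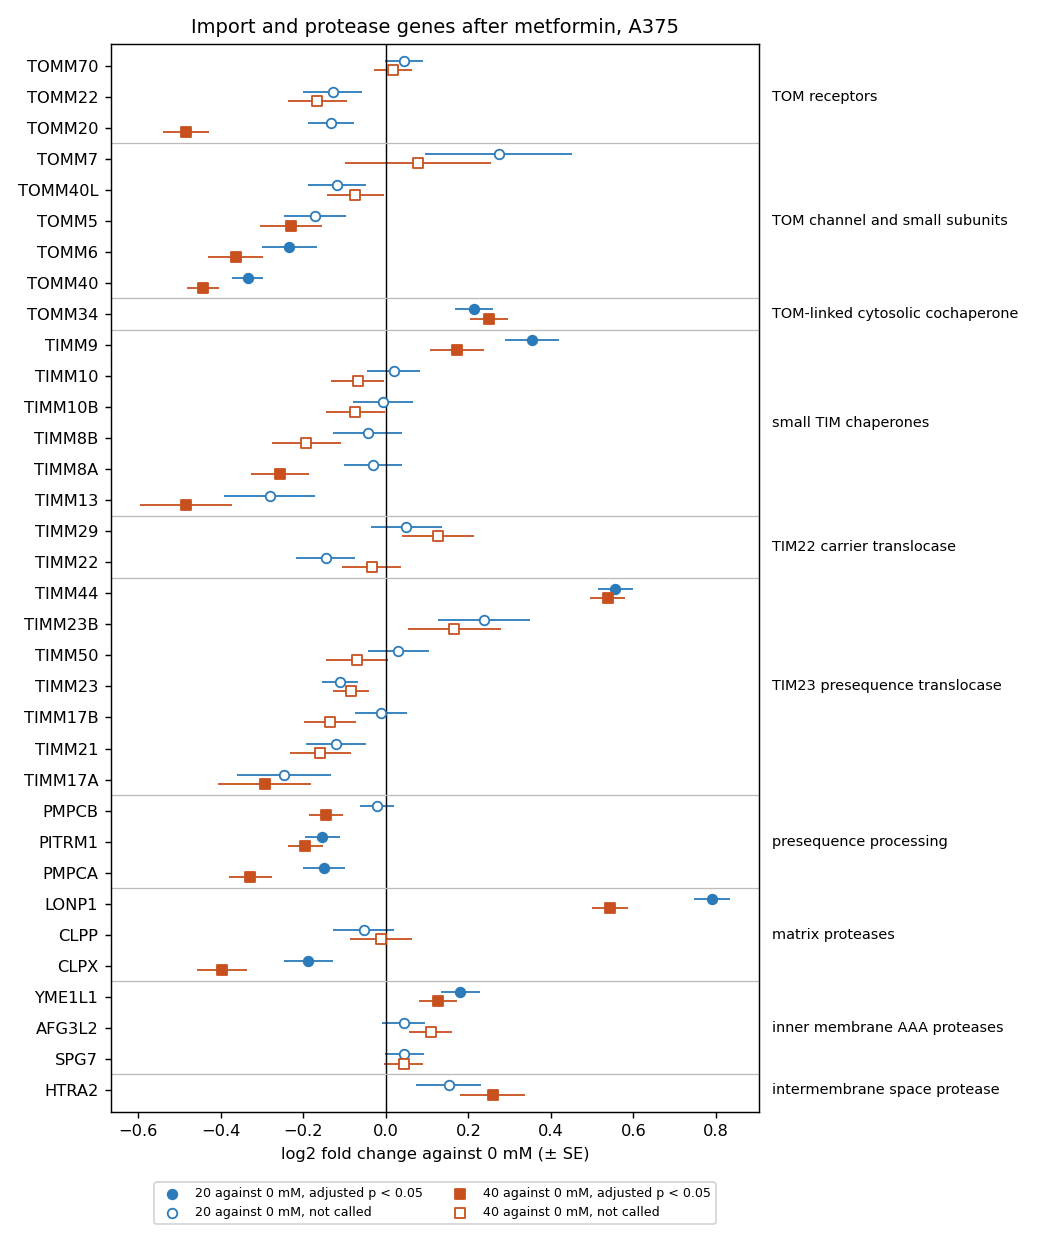
Log2 fold change of the 34 tested members against 0 mM, with standard errors, for 20 mM (circles) and 40 mM (squares), grouped by role; filled symbols passed the edgeR test at an adjusted p under 0.05. LONP1 (0.79 and 0.54) and TIMM44 (0.56 and 0.54) stand to the right of all others, and TOMM20, TIMM13 and TOMM40 lie farthest left at 40 mM.

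Among the receptors of the TOM complex, TOMM20 fell at the higher dose. TOMM20, the receptor that recognises presequences (ENSG00000173726, chromosome 1, 235109341 to 235128837), stood at 117, 113 and 114 FPKM at 0 mM, at 103, 106 and 105 at 20 mM and at 87.4, 89.0 and 75.5 at 40 mM. The groups did not overlap at any step, and replicate 3 of 40 mM was the lowest library. The change was -0.13 ± 0.06 (log2, SE) at 20 mM, which did not pass the test (adjusted p = 0.096), and -0.48 ± 0.06 at 40 mM (adjusted p = 3.4e-05), with -0.35 ± 0.06 between the doses (adjusted p = 0.0013). Without replicate 3 of 40 mM the change at 40 mM was -0.42. In bulk RNA, less RNA per cell and fewer cells of one kind cannot be told apart, which holds for every change described here.

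TOMM22, the receptor at the centre of the complex, measured 41.5 ± 2.45 FPKM (SD, n = 3) at 0 mM, 38.0 ± 1.15 at 20 mM and 37.9 ± 3.89 at 40 mM. TOMM70, which receives carrier proteins from cytosolic chaperones, measured 36.4 ± 0.697, 37.6 ± 0.503 and 37.7 ± 2.33 FPKM. Neither passed the test at either dose, with changes of -0.13 and -0.17 for TOMM22 and 0.04 and 0.02 for TOMM70. TOMM22 was called at 40 mM with DESeq2 (adjusted p = 0.044) and without replicate 2 of 40 mM (-0.22, adjusted p = 0.034). At 0 mM TOMM20 and TOMM6 were the most abundant members per length, at 115 ± 1.80 and 118 ± 2.15 FPKM, which overlap in their spread.

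TOMM40, the barrel that forms the channel of the outer membrane (ENSG00000130204, chromosome 19, 44890569 to 44903689), fell at both doses. It stood at 50.1, 50.0 and 47.3 FPKM at 0 mM, at 39.7, 38.4 and 39.0 at 20 mM and at 37.2, 37.0 and 36.9 at 40 mM. All treated libraries lay below all untreated ones, and the 40 mM libraries lay close together. The change was -0.34 ± 0.04 at 20 mM (adjusted p = 0.00014) and -0.44 ± 0.04 at 40 mM (adjusted p = 4.9e-06). Its paralog TOMM40L measured 11.5 ± 1.05, 10.6 ± 0.284 and 11.2 ± 0.684 FPKM and passed the test at neither dose, but at 20 mM it did without replicate 3 of 0 mM (-0.19, adjusted p = 0.040).

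TOMM5, TOMM6 and TOMM7 are the small subunits that help assemble and stabilise the channel. TOMM6 stood at 121, 117 and 117 FPKM at 0 mM, at 94.9, 109 and 97.7 at 20 mM and at 86.5, 94.6 and 101 at 40 mM. Treated libraries were lower without overlap, by -0.23 ± 0.07 at 20 mM (adjusted p = 0.021) and -0.36 ± 0.07 at 40 mM (adjusted p = 0.00081). TOMM5 stood at 39.6, 39.1 and 34.8 FPKM at 0 mM, at 33.1, 33.0 and 34.8 at 20 mM and at 33.1, 36.7 and 29.4 at 40 mM, so the groups overlapped; its change at 40 mM was -0.23 ± 0.08 (adjusted p = 0.023). TOMM7 ran from 36.2 to 40.9 FPKM at 0 mM and from 42.7 to 48.2 at 20 mM, but stood at 46.2, 51.0 and 26.8 at 40 mM. Replicate 3 of 40 mM was below every other library for TOMM7, and the changes of 0.27 ± 0.18 and 0.08 ± 0.18 did not pass the test; without it TOMM7 was called at both doses, by 0.31 at 40 mM. Without that library TOMM5 was -0.15 at 40 mM (adjusted p = 0.056), and its call was also lost without replicate 1 or 2 of 0 mM. TOMM6 at 20 mM lost its call without replicate 1 of 0 mM or replicate 1 or 3 of 20 mM. In these fits its change was -0.21 to -0.19 (adjusted p up to 0.082).

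TOMM34, a cytosolic cochaperone that binds HSP70 and HSP90 and keeps precursors importable, rose at both doses. It stood at 67.5, 69.8 and 64.1 FPKM at 0 mM, at 78.0, 77.3 and 78.7 at 20 mM and at 81.4, 78.7 and 85.1 at 40 mM. No treated library overlapped an untreated one. The change was 0.21 ± 0.05 at 20 mM (adjusted p = 0.0050) and 0.25 ± 0.05 at 40 mM (adjusted p = 0.00076). TOMM34 shares 16823 bases of its span with PABPC1L on the opposite strand (mean 20.7 FPKM), and the sources do not say whether strand entered the counting.

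**Figure D2:**
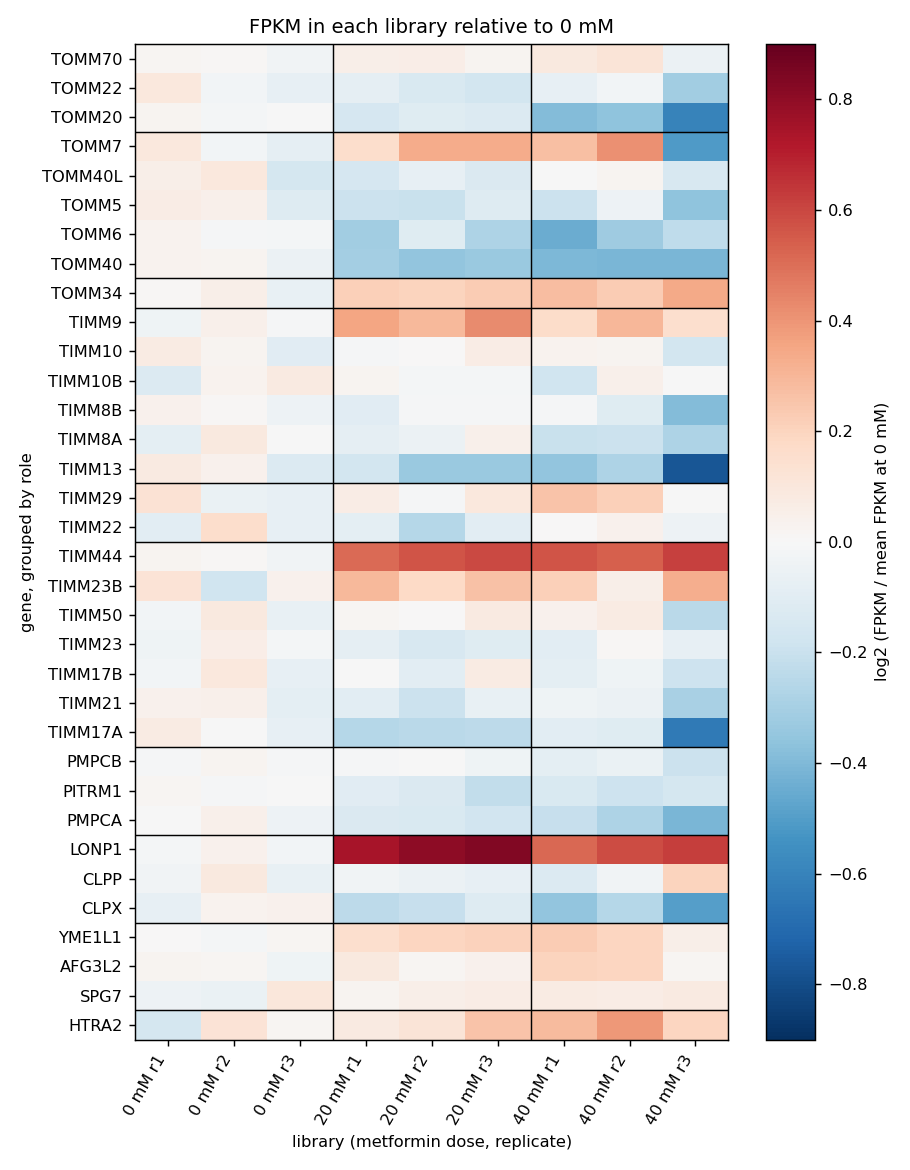
Level of each tested member in each library as log2 of its FPKM over the mean at 0 mM (red higher, blue lower), with rows grouped by role and columns by dose and replicate. TIMM44 and LONP1 are red in all 6 treated libraries and TOMM40 is blue in all 6, while replicate 3 of 40 mM is the darkest blue of its dose for TOMM20, TOMM7, TIMM13 and TIMM17A.

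The small TIM proteins are chaperones of the intermembrane space that work as hexamers, TIMM9 with TIMM10 and TIMM8A with TIMM13. TIMM9 rose (ENSG00000100575, chromosome 14, 58408495 to 58427531), standing at 11.6, 12.3 and 11.8 FPKM at 0 mM, at 15.2, 14.5 and 15.9 at 20 mM and at 13.3, 14.6 and 13.2 at 40 mM. All treated libraries were above all untreated ones, by 0.35 ± 0.07 at 20 mM (adjusted p = 0.0024) and 0.17 ± 0.07 at 40 mM (adjusted p = 0.042). Its partner TIMM10 measured 61.5 ± 3.80, 62.5 ± 1.78 and 60.1 ± 4.47 FPKM and did not pass the test. The call of TIMM9 at 40 mM held in 9 of 18 alternatives. It was lost when any one library of 0 mM, the first or the second of 20 mM or replicate 2 of 40 mM was left out. In these fits the change was 0.13 to 0.19 (adjusted p up to 0.15).

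TIMM13 fell at 40 mM, from 34.0, 32.9 and 29.5 FPKM at 0 mM to 25.2, 26.5 and 18.8, with 28.6, 25.5 and 25.4 at 20 mM. Treated libraries lay below untreated ones without overlap, and replicate 3 of 40 mM was the lowest. The change was -0.28 ± 0.11 at 20 mM (adjusted p = 0.075) and -0.48 ± 0.11 at 40 mM (adjusted p = 0.0033), or -0.35 at 40 mM without replicate 3. At 20 mM TIMM13 was called with DESeq2 (adjusted p = 0.030) and without replicate 3 of 40 mM (-0.28, adjusted p = 0.0055). Its partner TIMM8A, the gene mutated in deafness-dystonia syndrome, stood at 5.14, 5.79 and 5.44 FPKM at 0 mM, at 5.15, 5.26 and 5.64 at 20 mM and at 4.75, 4.77 and 4.51 at 40 mM. It was lower at the higher dose, by -0.26 ± 0.07 against 0 mM (adjusted p = 0.0092) and -0.23 ± 0.07 against 20 mM (adjusted p = 0.033). TIMM8B and TIMM10B, the latter a peripheral part of the TIM22 complex, did not pass the test, with changes of -0.19 and -0.07 at 40 mM. TIMM8B was called with DESeq2 (adjusted p = 0.049) and without replicate 1 of 40 mM (-0.27, adjusted p = 0.018). TIMM8A lost its call between the doses without replicate 2 or 3 of 20 mM or any one library of 40 mM (-0.24 to -0.19).

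The TIM22 complex inserts carrier proteins into the inner membrane, and neither of its members in the group passed the test. TIMM22, the channel subunit, stood at 10.7, 12.8 and 10.9 FPKM at 0 mM, at 10.8, 9.57 and 10.7 at 20 mM and at 11.5, 11.7 and 11.1 at 40 mM. TIMM29, a subunit that links it to the TOM complex, measured 9.70 ± 0.776, 10.1 ± 0.381 and 10.9 ± 1.01 FPKM. The changes at 40 mM were -0.03 ± 0.07 and 0.13 ± 0.09.

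In the TIM23 complex, TIMM44 rose at both doses and TIMM17A fell at 40 mM. TIMM44, which tethers mitochondrial HSP70 to the channel exit (ENSG00000104980, chromosome 19, 7926718 to 7943667), stood at 15.8, 15.6 and 15.2 FPKM at 0 mM, at 22.2, 23.0 and 23.5 at 20 mM and at 23.0, 22.5 and 23.8 at 40 mM. The treated groups overlapped each other and lay far above the untreated one. The change was 0.56 ± 0.04 at 20 mM (adjusted p = 7.3e-06) and 0.54 ± 0.04 at 40 mM (adjusted p = 2.4e-06), with rank 488 and rank 1214 from the top among the 12394 changes. It was called under all 18 alternatives at both doses, between 0.51 and 0.58 when single libraries were left out.

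TIMM17A, a channel subunit, stood at 35.3, 33.5 and 32.0 FPKM at 0 mM, at 28.1, 28.5 and 28.5 at 20 mM and at 31.5, 31.1 and 21.6 at 40 mM. Both treated groups lay below the untreated one, with replicate 3 of 40 mM far below the rest. The change was -0.25 ± 0.11 at 20 mM (adjusted p = 0.12) and -0.29 ± 0.11 at 40 mM (adjusted p = 0.046). This last call held in 6 of 18 alternatives, and the value was -0.14 without replicate 3 of 40 mM (adjusted p = 0.024). The call was lost without any one library of 0 or 20 mM (-0.33 to -0.25, adjusted p up to 0.13).

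The other members of the complex did not pass the test. TIMM23, the channel subunit, measured 68.7 ± 2.44, 63.7 ± 1.39 and 66.3 ± 2.47 FPKM, and TIMM50, the receptor that receives presequences in the intermembrane space, 13.2 ± 0.719, 13.5 ± 0.386 and 12.9 ± 1.51. TIMM17B, TIMM21 and TIMM23B lay between -0.16 and 0.24 at both doses. TIMM23B is nearly identical to TIMM23 and overlaps the readthrough gene TIMM23B-AGAP6, so its 2.85 to 3.37 FPKM (means of the 3 doses) may hold reads of either. TIMM23B also shares 28155 bases with PARG on the opposite strand (mean 6.51 FPKM), and the strand used in counting is not stated.

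The matrix processing peptidase is a pair of PMPCB, the catalytic subunit, and PMPCA, which binds the presequence, and PITRM1 degrades the presequences it releases. All of these fell at 40 mM, PMPCB without a call under FPKM-sum scaling (-0.084, adjusted p = 0.17). PMPCA stood at 18.0, 18.6 and 17.5 FPKM at 0 mM, at 16.5, 16.4 and 16.0 at 20 mM and at 15.7, 14.9 and 13.6 at 40 mM. Its libraries separated at each step, with changes of -0.15 ± 0.05 at 20 mM (adjusted p = 0.046), -0.33 ± 0.05 at 40 mM (adjusted p = 0.00028) and -0.18 ± 0.05 between the doses (adjusted p = 0.024). PMPCB stood at 16.9, 17.3 and 16.9 FPKM at 0 mM, at 16.9, 17.0 and 16.5 at 20 mM and at 16.0, 16.4 and 14.9 at 40 mM. It overlapped at 20 mM (-0.02) and lay lower at 40 mM, by -0.14 ± 0.04 (adjusted p = 0.012), and by -0.12 ± 0.04 between the doses (adjusted p = 0.046).

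PITRM1 stood at 14.0, 13.8 and 13.8 FPKM at 0 mM, at 12.9, 12.7 and 11.9 at 20 mM and at 12.6, 12.2 and 12.4 at 40 mM. Treated libraries were lower without overlap, by -0.15 ± 0.04 (adjusted p = 0.020) and -0.20 ± 0.04 (adjusted p = 0.0027). The call of PITRM1 at 20 mM was lost without replicate 1 of 0 mM or replicate 3 of 20 mM. Its change was then -0.14 and -0.12 (adjusted p up to 0.085). PMPCA lost its call at 20 mM in 11 of 18 alternatives. These included leaving out any one library of 0 or 20 mM or replicate 2 of 40 mM. In those left-out fits the change was -0.17 to -0.13 (adjusted p up to 0.15). Between the doses PMPCB lost its call in 13 alternatives, and of the left-out libraries it held only without replicate 2 of 40 mM. Without any other single library the change was -0.14 to -0.09. PMPCA lost its call between the doses without replicate 1 or 2 of 20 mM (-0.17 and -0.18).

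LONP1, the ATP-dependent LON protease of the matrix (ENSG00000196365, chromosome 19, 5691834 to 5720572), rose at both doses, with the largest change of the 34 members at 20 mM and one equal to that of TIMM44 within its error at 40 mM. It stood at 35.7, 36.9 and 35.5 FPKM at 0 mM, at 60.3, 62.9 and 64.2 at 20 mM and at 51.5, 54.2 and 55.5 at 40 mM. The groups did not overlap, and the 20 mM libraries were the highest. The change was 0.79 ± 0.04 at 20 mM (73.0% higher, adjusted p = 5.5e-07), with rank 211 from the top, and 0.54 ± 0.04 at 40 mM (45.7% higher, adjusted p = 2.3e-06), with rank 1193. Between the doses LONP1 fell by 0.25 ± 0.04 (adjusted p = 0.0020). These 3 calls held under all 18 alternatives, and LONP1 shares 42 bases of its span with RPL36 (mean 126 FPKM) on the opposite strand.

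CLPP and CLPX form the ClpXP protease, in which CLPX unfolds the substrate and CLPP cuts it. CLPX (ENSG00000166855, chromosome 15, 65148219 to 65185342) stood at 13.9, 14.9 and 15.0 FPKM at 0 mM, at 12.4, 12.7 and 13.4 at 20 mM and at 11.4, 12.2 and 10.4 at 40 mM. It was lower at each step without overlap, by -0.19 ± 0.06 at 20 mM (adjusted p = 0.034), -0.40 ± 0.06 at 40 mM (adjusted p = 0.00021) and -0.21 ± 0.06 between the doses (adjusted p = 0.023). CLPP stood at 16.3, 17.7 and 15.9 FPKM at 0 mM, at 16.3, 16.1 and 15.8 at 20 mM and at 15.3, 16.3 and 19.1 at 40 mM, with overlap throughout and no call (-0.05 and -0.01). The call of CLPX at 20 mM was lost without replicate 2 or 3 of 0 mM or replicate 1 or 2 of 20 mM. In these fits the change was -0.18 to -0.16 (adjusted p up to 0.11). Between the doses the call was lost without replicate 2 or 3 of 20 mM or replicate 1 of 40 mM (-0.22 to -0.17).

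The inner membrane carries AAA proteases on both faces. YME1L1, which faces the intermembrane space, stood at 26.6, 26.2 and 27.0 FPKM at 0 mM, at 29.6, 30.5 and 30.7 at 20 mM and at 31.2, 30.5 and 27.6 at 40 mM. It was higher in all treated libraries, by 0.18 ± 0.05 at 20 mM (adjusted p = 0.014) and 0.13 ± 0.05 at 40 mM (adjusted p = 0.038). The subunits of the protease that faces the matrix, AFG3L2 and SPG7 (paraplegin), did not pass the test. AFG3L2 measured 15.5 ± 0.390, 16.0 ± 0.392 and 17.1 ± 1.20 FPKM and SPG7, the lowest of the tested members, 2.04 ± 0.127, 2.11 ± 0.0313 and 2.15 ± 0.00891. AFG3L2, at 0.11 ± 0.05 for 40 mM, was called in 5 of 18 alternatives, among them FPKM-sum scaling (0.17, adjusted p = 0.037) and without replicate 3 of 40 mM (0.16, adjusted p = 0.0048). HTRA2, a serine protease of the intermembrane space, stood at 8.80, 10.7 and 9.96 FPKM at 0 mM, at 10.4, 10.6 and 11.7 at 20 mM and at 12.0, 12.8 and 11.2 at 40 mM. It overlapped at 20 mM (0.15 ± 0.08, adjusted p = 0.17) and was higher without overlap at 40 mM, by 0.26 ± 0.08 (adjusted p = 0.016). The call of YME1L1 at 20 mM was lost without replicate 2 of 0 mM or of 20 mM, with changes of 0.17 and 0.18 (adjusted p up to 0.058). At 40 mM the call was lost in 9 of 18 alternatives. These included leaving out any single library of 0 mM, replicate 2 or 3 of 20 mM or replicate 1 or 2 of 40 mM. In those left-out fits the change was 0.09 to 0.13. HTRA2 lost its call without replicate 1 of 0 mM or replicate 2 of 40 mM (0.19 and 0.21, adjusted p up to 0.067). Of the span of HTRA2 (mean 10.9 FPKM), 1062 bases lie in LOXL3 (mean 46.5 FPKM) and 36 in AUP1 (mean 58.4 FPKM). Both are on the opposite strand, and the strand used in counting is not stated.

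**Figure D3:**
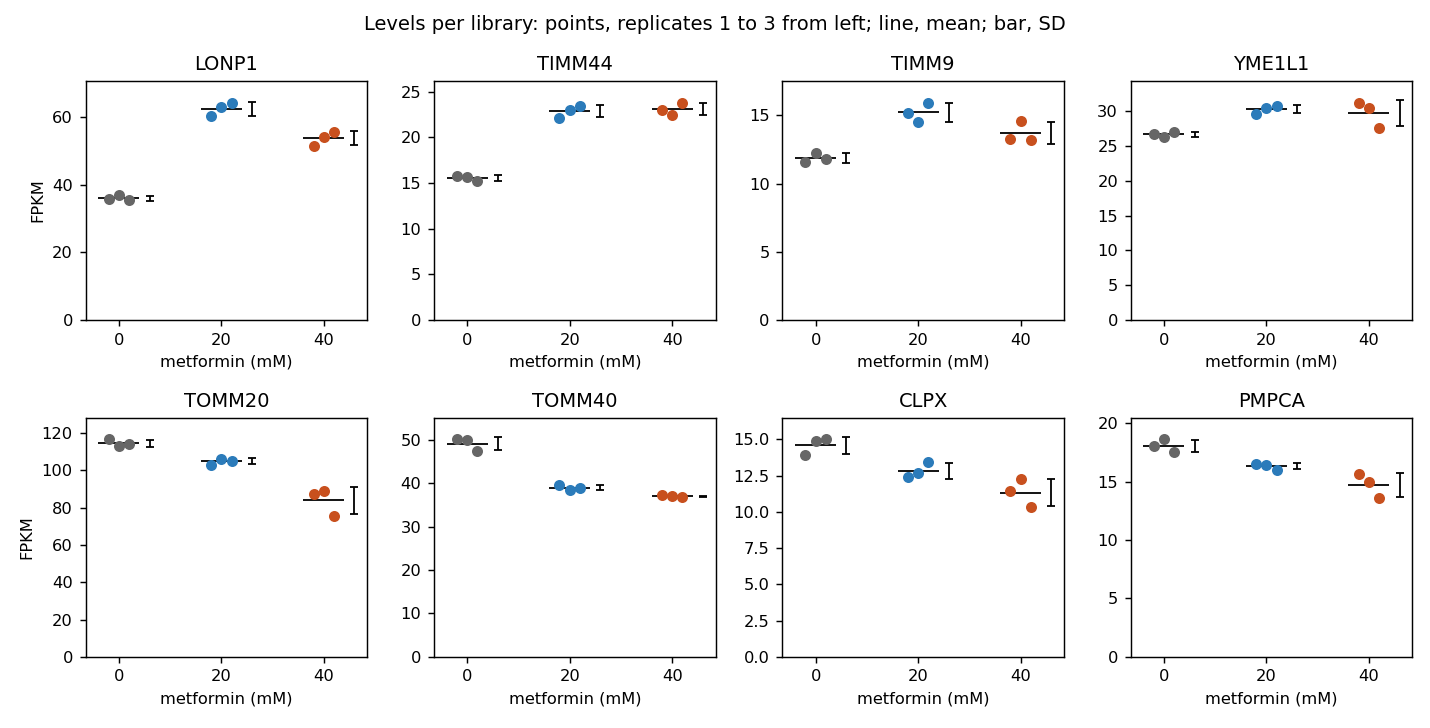
FPKM of 8 members in each library (points, replicates 1 to 3 from left), with the mean (line) and SD (bar beside it) of the 3 libraries at 0, 20 and 40 mM metformin; axes start at 0. LONP1 peaks at 20 mM (60.3 to 64.2) and TIMM44 is level across the treated groups (22.2 to 23.8), whereas TOMM20, CLPX and PMPCA are lower at each dose.

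Ratios between members within a library do not depend on how libraries are scaled to one another. The pairs read here hold partners in a complex, paralogs such as TOMM40 and TOMM40L, and the separate proteases YME1L1 and LONP1. A set of 10 pairs, chosen by role but with earlier results of these data known, was compared between the 6 treated and the 3 untreated libraries with an exact two-sided permutation test, whose smallest possible p here is 0.0238. The ratio of YME1L1 to LONP1 was 0.739 ± 0.0257 at 0 mM, 0.484 ± 0.00652 at 20 mM and 0.555 ± 0.0545 at 40 mM (SD, n = 3, exact permutation p = 0.0238), the largest shift of the 10 pairs at -0.51 on the log2 scale. LONP1, which rose most among the members at 20 mM, is its denominator. TOMM40 to TOMM40L went from 4.28 ± 0.268 to 3.67 ± 0.159 and 3.31 ± 0.198, and TIMM10 to TIMM9 from 5.19 ± 0.374 to 4.11 ± 0.116 and 4.39 ± 0.300. PMPCA to PMPCB, subunits of the same enzyme, went from 1.06 ± 0.0199 to 0.972 ± 0.00781 and 0.934 ± 0.0375. In these 4 pairs treated and untreated libraries did not overlap, yet with the smallest p the design allows (exact permutation p = 0.0238) the value adjusted over the 10 pairs was 0.0595, so none passed.

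The ratio of CLPP to CLPX was 1.14 ± 0.0704, 1.26 ± 0.0718 and 1.51 ± 0.295, the last with a single library at 1.85, replicate 3 (exact permutation p = 0.0476, adjusted 0.0952). TIMM17A to TIMM17B and TIMM13 to TIMM8A differed by -0.21 and -0.25 on the log2 scale, which did not pass (exact permutation p = 0.0952, adjusted 0.136 for both). TIMM8A to TIMM8B, TIMM10 to TIMM10B and AFG3L2 to SPG7 moved by -0.02, 0.02 and 0.03 (adjusted exact permutation p = 0.857 for each).

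**Figure D4:**
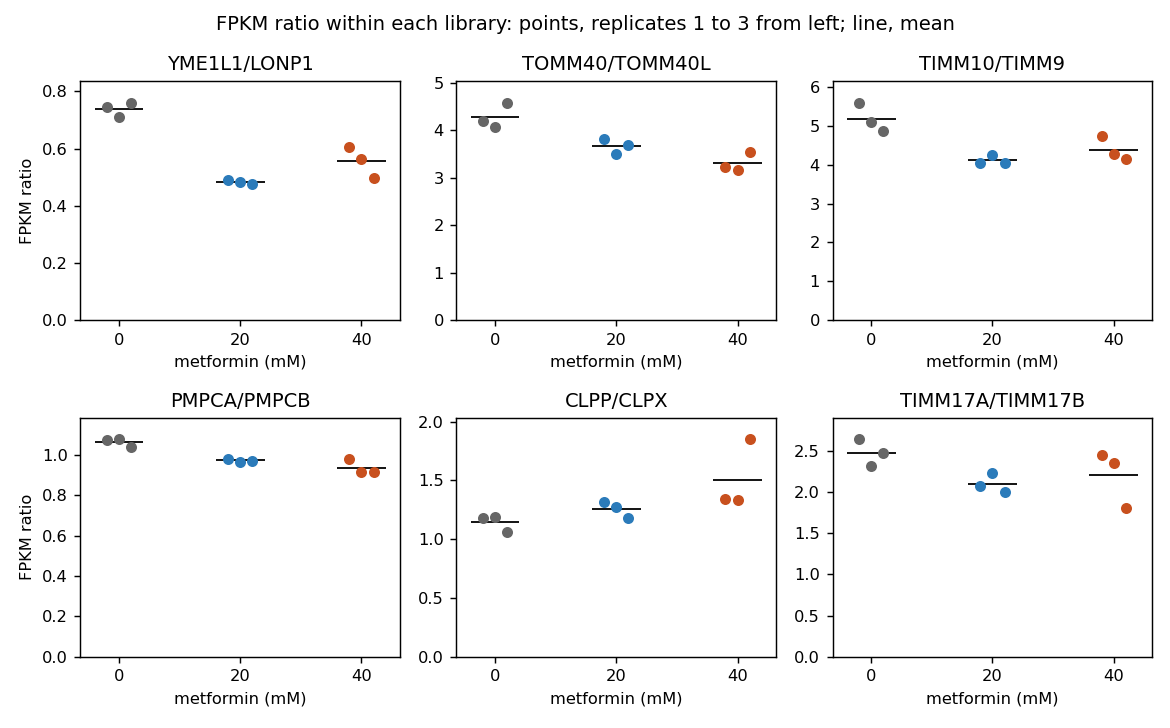
FPKM ratio within each library for 6 pairs of members at 0, 20 and 40 mM metformin (points, replicates 1 to 3 from left, and line, mean of 3). Axes start at 0. The ratio of YME1L1 to LONP1 is 0.711 to 0.760 in untreated libraries and at most 0.606 in treated ones, and CLPP to CLPX reaches 1.85 in replicate 3 of 40 mM.

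Other genes of the same pathway outside the group were read from the same fit: of 53 tested, 8 were higher and 13 lower at 20 against 0 mM, and 12 were higher and 21 lower at 40 against 0 mM. These are 15.1% and 24.5% at 20 mM, where 16.3% and 15.2% of all tested genes were called, and 22.6% and 39.6% at 40 mM, where 28.8% and 27.4% were. The lists that follow hold 3 to 13 genes each, were not tested as lists and are read against the same shares. In the import motor, 3 of 8 genes rose at 20 mM, and at 40 mM 3 rose and 1 fell. HSPA9, the mitochondrial HSP70 that TIMM44 anchors, went from 74.5 ± 0.635 FPKM to 96.1 ± 3.57 and 97.0 ± 0.902 (0.36 ± 0.04 and 0.35 ± 0.04, adjusted p = 4.8e-05 and 1.7e-05). GRPEL2, a nucleotide exchange factor of that HSP70, went from 9.06 ± 0.0906 to 13.6 ± 0.256 and 13.4 ± 1.84 (0.58 ± 0.08 and 0.53 ± 0.08, adjusted p = 0.00040 and 0.00020), while PAM16, the J-like subunit, fell at 40 mM (-0.30 ± 0.12, adjusted p = 0.046).

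In the list of matrix chaperonins and folding factors, which does not hold HSPA9, 2 of 4 genes fell at 20 mM and 3 at 40 mM, and none rose. TRAP1, the mitochondrial HSP90, went from 37.0 ± 1.51 FPKM to 30.3 ± 0.105 and 23.9 ± 0.673 (-0.66 ± 0.04 at 40 mM, adjusted p = 4.4e-07). HSPD1 and HSPE1, the chaperonin HSP60 and its lid, changed by -0.24 ± 0.05 and -0.27 ± 0.07 at 40 mM (adjusted p = 0.0017 and 0.0080). In the disulfide relay that traps small TIM proteins in the intermembrane space, 1 of 3 genes fell at each dose: CHCHD4, the human MIA40, went from 16.7 ± 1.35 FPKM to 12.9 ± 0.322 and 9.25 ± 0.399 (-0.38 ± 0.07 and -0.89 ± 0.07, adjusted p = 0.0026 and 2.9e-06).

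Of 9 genes of outer membrane sorting and insertion, 1 rose and 3 fell at each dose, MTX3 rising by 0.59 ± 0.06 at 40 mM while the porins VDAC1 and VDAC3 fell by 0.33 ± 0.04 and 0.41 ± 0.05. None of 4 inner membrane insertion genes was called; BCS1L and OXA1L, with the smallest p, stood at 0.09 and -0.15 at 40 mM. Of 13 other peptidases and scaffolds, 3 fell at 20 mM, and at 40 mM 9 fell and 1 rose. Those that fell most were the low-expressed peptidases XPNPEP3 (1.89 ± 0.200 to 0.724 ± 0.0978 FPKM at 40 mM, -1.42 ± 0.11), IMMP2L (-0.84 ± 0.16) and METAP1D (-0.67 ± 0.14).

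Of 6 genes on the cytosolic side of import, 4 fell at 20 mM, and at 40 mM 4 fell and 2 rose. HSPA8, the constitutive cytosolic HSP70, went from 762 ± 38.8 FPKM to 471 ± 51.2 and 465 ± 22.5 (-0.70 ± 0.07 and -0.75 ± 0.07), and its partner DNAJA1 fell by 0.47 ± 0.05 and 0.51 ± 0.05, while the ubiquilin UBQLN2 rose by 0.31 ± 0.04 at 40 mM. Of 6 transcription factors and regulators of mitochondrial stress responses, 4 rose at 20 mM and 5 at 40 mM, and none fell against 0 mM. DDIT3, which encodes CHOP, rose by 2.34 ± 0.12 and 2.77 ± 0.12, CEBPB by 0.83 ± 0.06 and 1.00 ± 0.06, and ATF5 by 0.29 ± 0.07 and 0.83 ± 0.07. ATF4 rose by 0.59 ± 0.04 and 0.40 ± 0.04 and was lower at 40 than at 20 mM (-0.20 ± 0.04, edgeR adjusted p = 0.0074). Between the doses 2 of the 6 were higher and 1 lower, where 14.3% and 15.1% of all tested genes were.

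**Figure D5:**
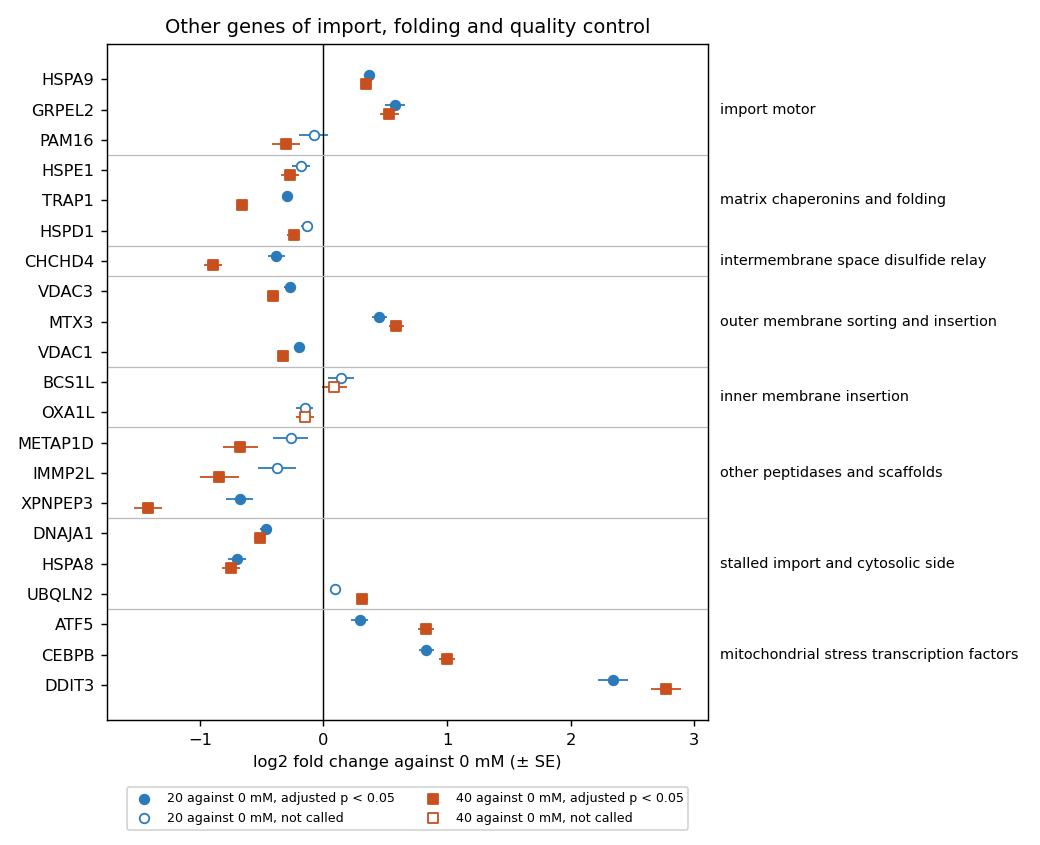
Log2 fold change against 0 mM with standard errors for 21 other genes of import, folding and quality control at 20 mM (circles) and 40 mM (squares); filled symbols passed the edgeR test at an adjusted p under 0.05. HSPA9 and GRPEL2 lie right of 0, TRAP1, CHCHD4 and XPNPEP3 left of it, and DDIT3 reaches 2.77.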

How the data were processed

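Read counts per gene and library, and FPKM per gene and library, are deposited in 1 table, per the file headers. The authors' FPKM is a length- and depth-normalised value and was used for levels and ratios, and the deposited counts were used for tests. FPKM was not rescaled by the TMM factors of the tests, which were 0.984 to 0.986 at 0 mM and 1.02 at 40 mM. Changes in mean FPKM can therefore differ from the log2 fold changes. CLPP had means of 16.7 and 16.9 FPKM at 0 and 40 mM beside a change of -0.01. Per the submitters' processing notes, StringTie 2.1.6 was used, in a role they do not state; the aligner, the genome build, the annotation and the strand used in counting are not stated in the sources used, and coordinates are as deposited (10 of 35 members have the same span in GENCODE 29).

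Genes with a mean of at least 1 FPKM (12394 genes, 98.7% of counts) were tested with edgeR 4.0.16 in R 4.3.3 (quasi-likelihood, TMM scaling, all 9 libraries in 1 fit, Benjamini-Hochberg over all of them, called at an adjusted p under 0.05). The SE is the log2 fold change over the square root of its F. The step was tested on simulated data. Ratios were tested by exact permutation in scipy 1.17.1, and promoter windows were searched on both strands. Alternatives were no filter, a filter at 5 FPKM, 2 other scalings, DESeq2 1.42.0, limma 3.58.1 on log2(FPKM + 1) and log2(FPKM + 0.1), only the 6 libraries compared, a replicate block, and each library left out. Each library held 65738242 counts or more, but counts per member differed, with 634 to 881 for TIMM23B and 19223 to 33868 for TOMM20. How far counting noise enters the precision of these genes was not measured.

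The members, the lists and the pairs were chosen with earlier results of these data known. Every member is reported. From each pathway list up to 3 called genes with the largest change at 40 against 0 mM are named, or the 2 with the smallest p. ATF4 is named in addition.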

Additional observations from a re-analysis of the deposited data

How the results depend on the processing

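Of 33 called member changes, 18 were called in each of 18 alternatives and none changed sign. Members called lower at 20 against 0 mM numbered 5, but 2 with no filter, 3 with limma at either pseudocount and 10 with only the 6 libraries compared, where 16 members were called in all. Members called higher at 40 against 0 mM numbered 3 with no filter. With FPKM-sum scaling, which moves the median of all genes to 0.06 at 40 mM, the members' median was -0.014 at 40 against 0 mM and 0.0028 between the doses, where 2 were called, all lower; limma called 3, all lower. With single libraries left out, members called at 20 against 0 mM ran from 7 to 16 and those called lower from 2 to 10, members higher at 40 against 0 mM from 3 to 8, and between the doses members called from 2 to 6, lower from 2 to 6 and higher from 0 to 1. Uncalled changes near 0 took the other sign: at 20 mM TIMM17B (0.0037) and TIMM10B (0.0083) with a filter at 5 FPKM; at 40 mM CLPP with that filter (0.012), with FPKM-sum scaling (0.045) and with limma (0.015 at a pseudocount of 1 and 0.016 at 0.1), and TIMM22 with FPKM-sum scaling (0.026) and limma (0.0028 and 0.0033). With single libraries left out, TIMM17B ran from -0.052 to 0.032, TIMM8A from -0.070 to 0.0089, TIMM10B from -0.057 to 0.034, TIMM50 from -0.0050 to 0.069 and TIMM10 from -0.032 to 0.064 at 20 mM, and CLPP from -0.11 to 0.054, TIMM22 from -0.074 to 0.046, TOMM70 from -0.013 to 0.065, TOMM7 from -0.099 to 0.31 and TIMM50 from -0.13 to 0.021 at 40 mM. At 20 mM alone the ratio TIMM8A to TIMM8B moved by 0.012 and AFG3L2 to SPG7 by -0.0034; with single libraries left out, TIMM8A to TIMM8B ran from -0.083 to 0.019, TIMM10 to TIMM10B from -0.077 to 0.11 and AFG3L2 to SPG7 from -0.042 to 0.067. The cause of these differences was not tested. Fewer genes or libraries enter the fit where a filter or a left-out library is the alternative.

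Whether libraries with the same replicate number are pairs is not stated. Their deviations from the group means correlated at -0.0011 to 0.25, where libraries with different numbers gave -0.24 to 0.074. Replicate 1 of 0 and 40 mM (0.25) and replicate 3 of 0 and 40 mM (0.17) lay above every value for different numbers. A shared origin by replicate number was not tested. With the replicate number as a block, members called were 5 higher and 6 lower at 20 against 0 mM, 5 higher and 12 lower at 40 against 0 mM, and 0 higher and 6 lower between the doses. With the block TIMM13 at 20 mM (adjusted p = 0.021) and TOMM22 at 40 mM (0.023) were called and TIMM9 at 40 mM (0.056) was not; no other member's call changed. At 3 libraries per dose, changes of the size of the standard errors printed cannot be told from the spread.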

Other observations

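Other nuclear-encoded mitochondrial families were read from the same fit. Beside them, 16.3% of all tested genes were called higher and 15.2% lower at 20 against 0 mM, and 28.8% and 27.4% at 40 against 0 mM. Of 78 mitochondrial ribosomal protein genes tested, 4 were higher and 23 lower at 20 against 0 mM, and 5 were higher and 43 lower at 40 against 0 mM (5.13%, 29.5%, 6.41% and 55.1%), with median log2 fold changes of -0.11 and -0.21. Of 38 genes of complex I subunits, 2 were higher and 1 lower at 20 mM, and 3 were higher and 10 lower at 40 mM (5.26%, 2.63%, 7.89% and 26.3%), with medians of 0.03 and -0.08. The import and protease genes had medians of -0.03 and -0.07. Differences between these families were not tested.

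Of the 35 members, 7 lie on chromosome 19 (20.0%), which holds 6.86% of the tested genes. The processed pseudogene TOMM20P4 was listed at 5.49, 4.70 and 4.21 FPKM (means at 0, 20 and 40 mM), beside 115, 105 and 83.9 for TOMM20, and TOMM40P1, TOMM40P2 and TOMM40P4 at 1.44 to 2.12 FPKM over all libraries; the sources used do not state how reads were shared between copies. For 13 members another gene with a mean of at least 1 FPKM overlaps the deposited span. Among them PMPCB shares 17223 bases with DNAJC2 (mean 12.1 FPKM) and AFG3L2 15377 with TUBB6 (mean 16.8 FPKM), each on the opposite strand. The whole span of TIMM17B (4697 bases, mean 13.3 FPKM) lies within PQBP1 on the opposite strand (mean 29.6 FPKM). Its level, and the ratio of TIMM17A to TIMM17B, may therefore hold reads of PQBP1 if strand did not enter the counting.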
